A study of Mus musculus with 102 samples.

Results

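Epidermal stem cells of adult mice under calorie restriction (CR) were compared with those of adult mice on control diet at zeitgeber time (ZT) 20 h, 1 of 6 collection times. The comparison holds 9 arrays of the 102 in the series, chosen by their labelled age, diet and time: 5 arrays of CR mice and 4 arrays of control mice. The CR mice were 47 to 57 weeks old and received 30% less food than the free intake for 25 weeks, after 3 weeks of adaptation in which their food was cut by 10% each week. The control mice were of the same age and ate control diet ad libitum. All of these mice, in both diets, were Per1-Venus BAC transgenic animals on a C57B6/J background, so every group carries a reporter of the clock gene Per1. For context, 25 CR and 19 control arrays of adult mice at the other 5 times and 5 CR and 5 control arrays of aged mice (83 to 97 weeks) at ZT 20 were used. Each array is 1 sample. The design text gives 4 mice for each time point and diet, while the CR group here has 5 arrays, and the labels do not link arrays to single mice or to days of collection. The p values therefore rest on the spread between arrays, not between known mice. Unless stated otherwise, that spread was estimated from all 102 arrays of the series, not from these 9 alone.

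The circadian clock of skin cells is a feedback loop in which the activators Clock and Arntl (BMAL1) switch on the Per and Cry genes, whose proteins then repress them. Nr1d and Ror receptors set the level of Arntl, and the PAR-bZIP factors Dbp, Tef and Hlf carry the rhythm to output genes. In mouse epidermis, DNA replication and cell division of stem cells are known to follow the time of day, and restricted feeding is known to shift rhythms in many tissues.

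Levels are the authors' log2 RMA values of Affymetrix mouse PM arrays, a relative fluorescence scale, and every difference is the CR mean minus the control mean in log2 units. The cells carried the defining genes of basal keratinocytes at high levels in both diets. Krt14, a keratin of the basal layer, averaged 12.44 in CR arrays and 12.47 in control arrays, and Krt5, its partner, averaged 12.35 in CR arrays and 12.40 in control arrays. The 9 arrays correlated with each other at 0.977 to 0.996. Xist was higher than the Y-linked genes on 2 CR arrays and 2 control arrays, and the Y-linked genes were higher on 3 CR arrays and 2 control arrays, so arrays of both sexes occur in both diets. CR replicate 1 lay farthest from its group (SD of its deviation over genes 0.258, against 0.151 to 0.204 on the other CR arrays).

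No gene passed the threshold at ZT 20. In 1 limma fit over all 102 arrays with a mean per group of age, diet and time, 0 of 13383 tested genes (0%) were higher and 0 (0%) lower at a Benjamini-Hochberg adjusted p under 0.05, and the smallest adjusted p was 0.99994. At an unadjusted p under 0.05 there were 112 genes (0.837% of those tested), 32 higher in CR (0.239%) and 80 lower (0.598%). The CR and control arrays did not overlap for 246 genes (1.84%), of which 84 were higher in CR (0.628%) and 162 lower (1.21%). The CR mean was the higher for 6133 genes (45.8%) and the lower for 7250 (54.2%), with a median difference of -0.01 over all genes. A difference of at least 0.5 was reached by 28 genes upward (0.209%) and 41 downward (0.306%).

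The count of 0 depends on how the spread is estimated. The adult groups at ZT 20 were among the tightest of the 24 groups: the median SD of a gene was 0.143 in CR arrays, the third smallest, and 0.122 in control arrays, the smallest, while it reached 0.362 in adult control mice at ZT 0. A spread shared by all arrays gave a median standard error of 0.163 for the ZT 20 difference, and a fit of the 9 arrays alone gave 0.0929. That fit of 9 arrays also called 0 genes with limma, with 690 at an unadjusted p under 0.05 (267 higher, 2%, and 423 lower, 3.16%) and a smallest adjusted p of 0.622. If no gene differed, about 669 of the 13383 genes would be expected at that unadjusted level. The 690 genes of this fit lie close to that number, and the 112 of the fit over all arrays lie well under it. With weights estimated per array, limma called 12 genes higher (0.0897%) and 30 lower (0.224%). With weights updated gene by gene it called 8 higher (0.0598%) and 18 lower (0.134%). With weights per group, a choice made after the data had been seen, it called 2 higher (0.0149%) and 7 lower (0.0523%), and all 9 of these were also among the 42. The 95% intervals of 13159 genes (98.3%) lay within 1 log2 unit of 0, with a median of 0.324 from estimate to bound, so smaller differences may have gone uncalled.

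The 9 genes that passed with weights per group were Itpkb and the unnamed transcript 6430548M08Rik, higher in CR, and Wwox, Slc43a1, Wnt16, Phospho2, Ints9, Col18a1 and Il1rap, lower in CR. Each of them has an adjusted p of 0.99994 in the limma fit without weights, so the values that follow are given as measured. Wwox, an oxidoreductase with WW domains known as a tumour suppressor, had 5.68, 5.48, 6.04, 5.94 and 5.69 in CR arrays and 6.34, 6.33, 6.42 and 6.31 in control arrays. Every CR array lay under every control array, and the difference was -0.58 ± 0.17 (SE in the limma fit without weights, as in the differences that follow). In limma with weights per group, Wwox had an SE of 0.11 and an adjusted p of 0.00534. Slc43a1, a transporter of large neutral amino acids, had 6.81, 7.06, 6.76, 5.97 and 6.44 in CR arrays and 7.28, 7.86, 7.37 and 7.86 in control arrays. The groups did not overlap, and at -0.99 ± 0.31 this was the widest gap among these 9 genes.

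Itpkb, a kinase that phosphorylates the second messenger inositol trisphosphate, had 8.78, 8.95, 8.84, 8.51 and 8.51 in CR arrays and 7.89, 8.30, 8.22 and 8.06 in control arrays. All CR arrays were above all control arrays, a difference of 0.60 ± 0.21. Wnt16, a Wnt ligand, had 6.69, 7.43, 6.65, 7.41 and 7.003 in CR arrays and 7.70, 7.72, 7.16 and 8.42 in control arrays. Here control replicate 3 lay within the CR range, and the difference was -0.71 ± 0.21. Col18a1, a collagen of basement membranes, had 7.39, 6.76, 7.49, 7.10 and 7.38 in CR arrays and 7.55, 7.96, 7.99 and 7.98 in control arrays, without overlap (-0.65 ± 0.24). Il1rap, the shared accessory chain of the interleukin-1 receptor, averaged 8.79 ± 0.16 in CR arrays (SD, n = 5) and 9.23 ± 0.12 in control arrays (SD, n = 4), also without overlap. Ints9, a subunit of the Integrator complex that processes small nuclear RNAs, averaged 7.84 in CR arrays and 8.20 in control arrays, and Phospho2, a phosphatase, averaged 8.18 in CR arrays and 8.80 in control arrays. Neither gene's groups overlapped. Within the arrays with Xist higher and within those with Y-linked genes higher, Wwox differed by -0.61 and -0.58, Wnt16 by -0.65 and -0.65, and Col18a1 by -1.05 and -0.35. For Wwox and Col18a1, whose groups did not overlap, the sign in each part was given in advance.

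**Figure D1:**
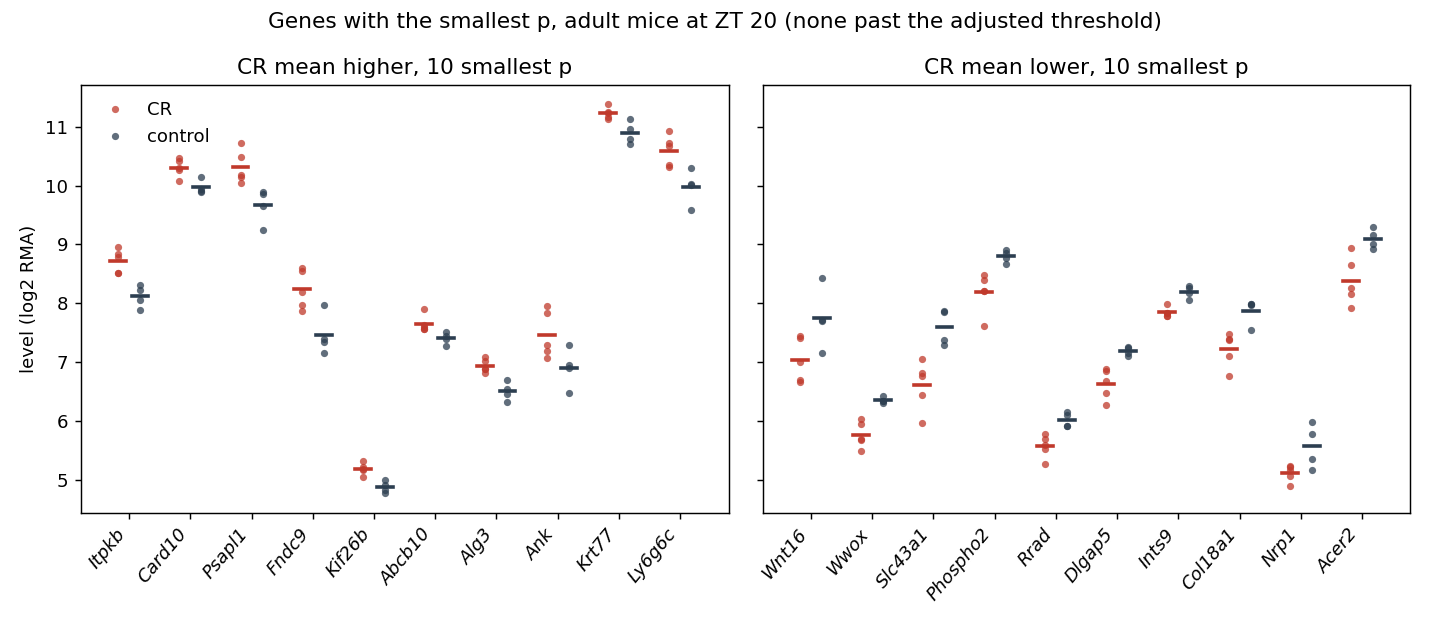
Levels (log2 RMA, vertical axis) of the 10 genes with the smallest p among those higher in CR (left panel) and the 10 among those lower in CR (right panel), 1 point per array and a bar at the group mean, with CR left of control for each gene. The groups do not overlap for 7 of the 10 genes in each panel (0.628% of all genes for CR higher, 1.21% for CR lower), a count that follows in part from choosing the genes by p, and none of the 20 passed the adjusted threshold in the limma fit without weights.

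The genes with the smallest p in each direction extend these lists. Among those higher in CR were Psapl1, a relative of prosaposin, at 0.66 ± 0.23, Fndc9 at 0.77 ± 0.27, Card10, an adaptor of NF-kappaB signalling, at 0.34 ± 0.12, and Alg3, a mannosyltransferase of N-glycan assembly in the endoplasmic reticulum, at 0.44 ± 0.18. Krt77, a keratin of differentiated epidermis, had 11.14, 11.38, 11.26, 11.23 and 11.16 in CR arrays and 10.70, 11.12, 10.96 and 10.79 in control arrays. Its groups barely separated, with the lowest CR array just above the highest control array (0.34 ± 0.14). Ly6g6c, Ank (a pyrophosphate transporter), Kif26b (a kinesin family member) and Abcb10 (a mitochondrial transporter) completed the 10, between 0.25 and 0.62. Among those lower in CR were Rrad, a small GTPase, at -0.45 ± 0.16, Acer2, a ceramidase of the Golgi, at -0.71 ± 0.27, Nrp1, a co-receptor of semaphorins and VEGF, at -0.45 ± 0.17, and Dlgap5, a spindle protein, at -0.55 ± 0.20. In aged mice at ZT 20, 9 of the 10 higher genes and 8 of the 10 lower genes differed in the same direction, with Slc43a1 at -0.80 and Wwox at -0.51, none past the adjusted threshold there. Averaged over the other 5 times in adult mice, all 10 of the higher genes and 6 of the 10 lower genes had the same direction. Psapl1 (0.53, limma adjusted p 0.00445), Ly6g6c (0.45) and Col18a1 (-0.73) passed that averaged test, while Slc43a1 (-0.02), Wnt16 (-0.03) and Phospho2 (0.09) lay near 0. Of all 13383 genes, 5258 were lower in CR at ZT 0, 6158 at ZT 4, 5372 at ZT 8, 6044 at ZT 12 and 7033 at ZT 16. A higher CR mean was thus the more common direction at ZT 0 to 12, which bears on the counts of shared direction. In aged mice at ZT 20 the median over all genes was -0.003.

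Clock genes showed small differences between the diets at ZT 20. None of the 16 clock genes tested passed the threshold, but 11 of the 12 repressors and outputs were lower in CR. The 4 activators had a median difference of -0.002. Arntl had 9.47, 8.56, 8.67, 8.82 and 9.40 in CR arrays and 8.31, 8.81, 9.03 and 9.18 in control arrays. The ranges overlapped, and the difference of 0.15 ± 0.44 was well inside the spread. Clock differed by -0.08 ± 0.20, Npas2, a paralogue of Clock, by -0.02 ± 0.15, and Rora, a nuclear receptor that activates Arntl, by 0.01 ± 0.14. The signs of Npas2, Rora and Arntl turn under other settings.

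Of the 9 repressors tested, 8 had a lower mean in CR, with a median of -0.20 against -0.01 over all genes (-0.13 without control replicate 4). Per3, a Period gene, had 6.10, 6.47, 6.00, 5.90 and 6.16 in CR arrays and 6.51, 6.76, 6.58 and 6.59 in control arrays. Its groups did not overlap, and the difference was -0.49 ± 0.30 (exact permutation test over the 9 arrays, two-sided, p = 0.0159). The smallest p that the 126 arrangements of this permutation test allow is 0.00794. The other probe sets of Per3 had smaller differences, of -0.36, -0.22, -0.10 and -0.07. Nr1d2, the REV-ERB beta repressor of Arntl, had 8.08, 7.84, 7.57, 7.70 and 8.03 in CR arrays and 8.16, 8.21, 8.07 and 8.30 in control arrays. Only CR replicate 1 reached the lowest control array, and the difference was -0.34 ± 0.20. Cry2 differed by -0.26 ± 0.18, Per1 by -0.20 ± 0.23, Per2 by -0.10 ± 0.18, Ciart by -0.06 ± 0.15 and Nfil3, a repressor that competes with the PAR-bZIP factors, by -0.17 ± 0.28. Bhlhe40 (DEC1) averaged 9.65 ± 0.60 in CR arrays (SD, n = 5) and 10.07 ± 0.26 in control arrays (SD, n = 4), with overlap. Cry1 was the exception at 0.15 ± 0.34, and it had 7.99 on CR replicate 1 and 6.35 to 6.85 on the other CR arrays, against 6.23 to 7.14 in control arrays. Without that array, Cry1 differed by -0.15.

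All 3 PAR-bZIP outputs had a lower mean in CR. Tef had 8.13, 8.32, 7.88, 8.27 and 8.21 in CR arrays and 8.89, 8.43, 8.40 and 8.34 in control arrays. Every CR array was under every control array, with a difference of -0.35 ± 0.15 (exact permutation test, two-sided, p = 0.00794, the smallest possible, and unadjusted p = 0.0178 in the limma fit across genes). Without control replicate 1, the highest control array, Tef differed by -0.23 (unadjusted p = 0.146 in limma), and without CR replicate 3 by -0.28 (unadjusted p = 0.0673 in limma). A second probe set of Tef differed by -0.58. Dbp had 5.64, 5.98, 5.88, 5.80 and 5.99 in CR arrays and 6.16, 6.05, 5.98 and 6.01 in control arrays. Dbp is near the bottom of its daily range here, and its groups overlapped slightly (-0.19 ± 0.29). Hlf differed by -0.18 ± 0.18. After adjustment for the permutation tests over all 13383 genes, the smallest adjusted p was 0.904, and none of these passed. Since no p of this test can lie under 0.00794, a single gene could hardly pass that adjustment, so it decides nothing about these genes. Per3 and Tef were the 2 of 16 clock genes whose groups did not overlap, beside 1.84% of all genes.

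**Figure D2:**
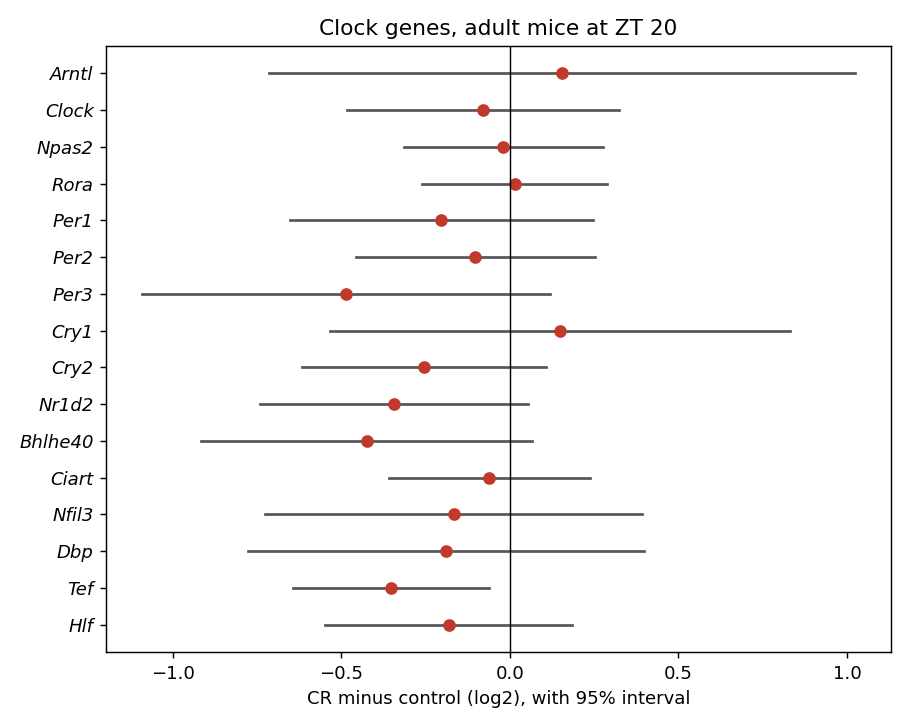
Difference of each of the 16 clock genes at ZT 20, CR minus control in log2 units (horizontal axis), with the 95% interval of the limma fit as a line. Points for 11 of the 12 repressors and outputs lie left of 0, and the interval of Tef alone, from -0.64 to -0.06, does not cross 0 with all 9 arrays in the fit.

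The same clock genes had wider diet differences at some other times of day. Per3 differed by 1.32 at ZT 4 and by -1.19 at ZT 16, against -0.49 at ZT 20. Dbp differed by 1.63 at ZT 4, 1.29 at ZT 8 and -1.08 at ZT 16, against -0.19 at ZT 20. Arntl, which peaks when these genes are low, differed by -1.75 at ZT 8 and 0.83 at ZT 16, against 0.15 at ZT 20. In CR mice Per3 averaged 8.76 at ZT 12, 7.13 at ZT 16 and 6.12 at ZT 20, and in control mice it averaged 9.12, 8.32 and 6.61 at the same times. The gap between diets was smaller at ZT 20 than at ZT 16 for each of the 6 genes plotted over the day, while for Per3, Tef, Nr1d2 and Cry2 it was smaller still at ZT 12. Rhythms were not fitted here.

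**Figure D3:**
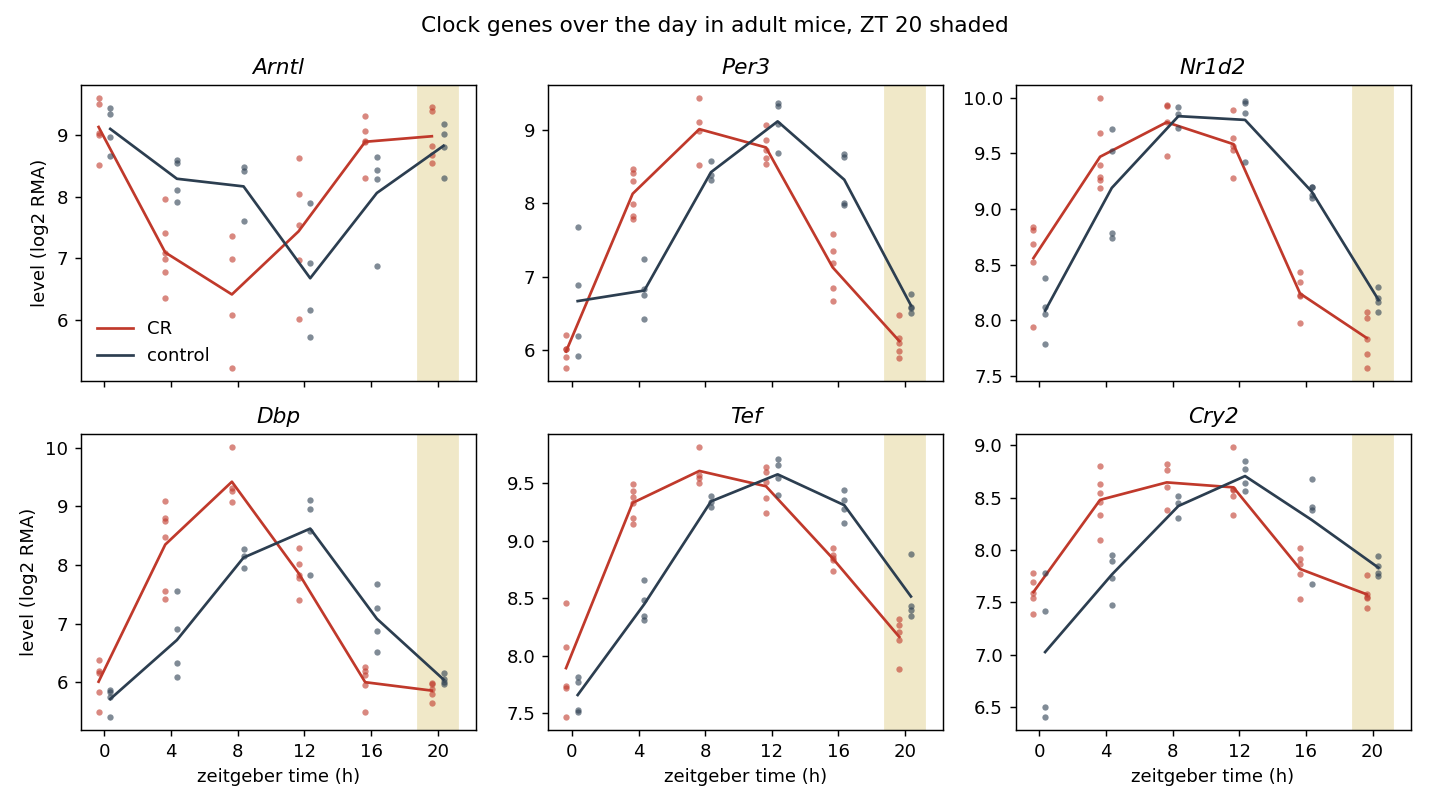
Levels (log2 RMA, vertical axis) of 6 clock genes over zeitgeber time in hours (horizontal axis) in adult mice, 1 point per array and a line through the group means, with CR points drawn left of control points. At the shaded ZT 20 the 2 lines lie within 0.49 of each other for every gene shown, while for Dbp they lie 1.63 apart at ZT 4.

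Genes of mitosis were the list that stood lowest. All 20 tested members, which build and control the spindle and the passage through division, had a lower mean in CR, with a median of -0.33 against -0.01 over all genes. None passed the adjusted threshold, 3 had an unadjusted p under 0.05 (0.598% of all genes were lower at that level), and the groups did not overlap for 6 of 20 (1.21% of all genes). Averaged over the 20 genes, the level was 7.57, 7.33, 7.87, 7.85 and 7.83 in CR arrays and 8.07, 8.16, 7.96 and 7.98 in control arrays. All CR arrays lay under all control arrays, and CR replicate 2 was the lowest. With the 9 arrays alone in the fit, 17 of the 20 genes were lower at an unadjusted p under 0.05, against 3.16% of all genes, and 0 passed adjustment. The genes of this list are known to be expressed together by dividing cells, so they are not independent counts.

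Mki67, the marker of cycling cells, had 9.37, 8.86, 9.54, 9.54 and 9.53 in CR arrays and 9.59, 9.78, 9.72 and 9.67 in control arrays. The groups did not overlap, with a difference of -0.33 ± 0.21. Ccnb2, a B-type cyclin of mitotic entry, had 6.45, 6.17, 6.89, 6.87 and 7.06 in CR arrays and 7.10, 7.53, 7.15 and 7.27 in control arrays, again without overlap (-0.58 ± 0.28). Aurkb, the kinase of the chromosomal passenger complex, had 8.86, 7.71, 9.51, 9.32 and 9.23 in CR arrays and 9.57, 9.78, 9.40 and 9.66 in control arrays. CR replicate 2 lay far below the rest, CR replicate 3 lay within the control range, and the difference was -0.67 ± 0.34. Nusap1, a spindle protein, differed by -0.57 ± 0.33, Ube2c, which feeds ubiquitin to the anaphase-promoting complex, by -0.47 ± 0.22, and the checkpoint kinase Bub1b by -0.28 ± 0.18. The weakest was Bub1 at -0.15. Leaving out each array in turn kept the median between -0.37 and -0.25, with the smallest size when CR replicate 2 was left out. The count of 3 genes at an unadjusted p under 0.05 fell to 0 without CR replicate 1, CR replicate 2 or control replicate 2, to 1 without control replicate 1 and to 2 without control replicate 4, and was 4 or 5 without each of the others. Within the arrays with Y-linked genes higher the median was -0.25, and within those with Xist higher it was -0.42, with 20 of 20 genes lower in both. These are parts of the same 9 arrays. Since all CR arrays lay under all control arrays in the average over the 20 genes, a lower average in both parts was given in advance.

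**Figure D4:**
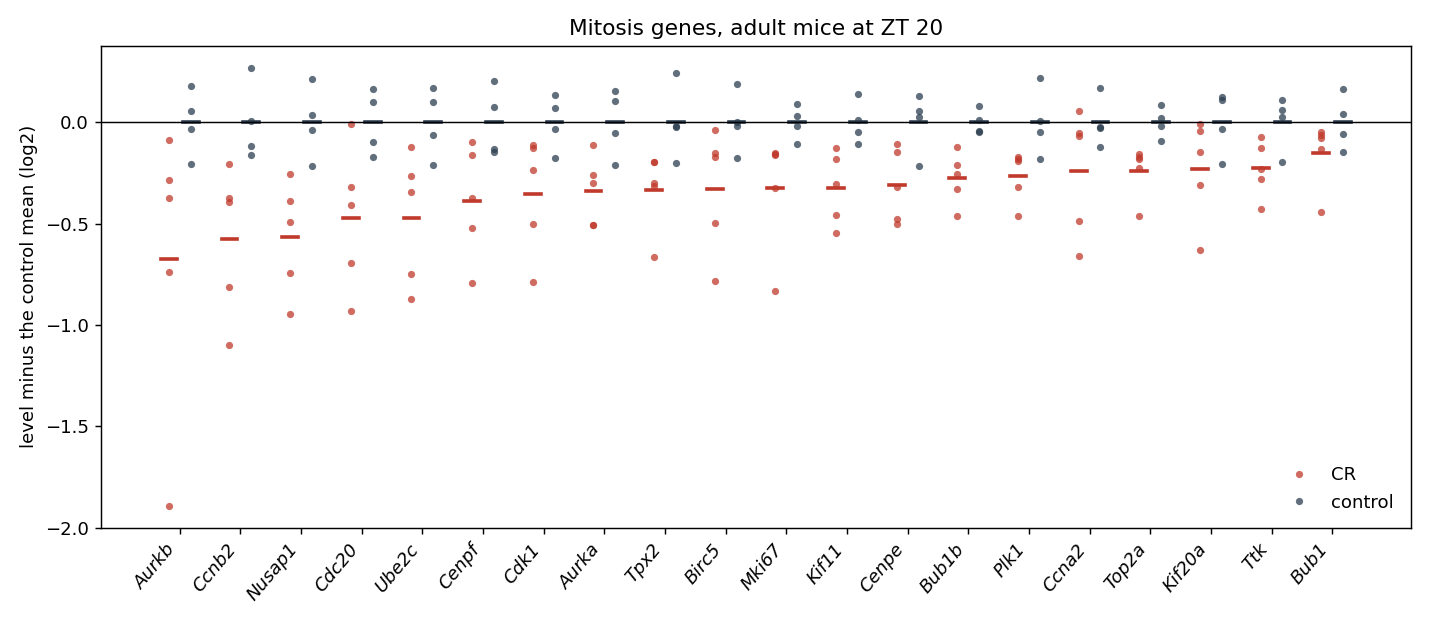
Level of each of the 20 mitosis genes minus its control mean (log2, vertical axis), 1 point per array and a bar at the group mean, with CR left of control, ordered by size of difference. Every CR bar lies below 0, from -0.67 for Aurkb to -0.15 for Bub1, and for most genes the highest CR arrays reach the control points.

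DNA replication genes were split in direction at ZT 20. Of 22 tested members, 10 had a higher and 12 a lower mean in CR, with a median of -0.02. The members ranged from -0.21 for Rfc4 to 0.41 for Ung. Pcna, the sliding clamp of DNA polymerase, averaged 10.70 in CR arrays and 10.69 in control arrays, and the helicase subunits Mcm2 and Mcm4 differed by 0.14 and 0.20. Cdc45 was lower in CR, at -0.27 to -0.14 with each array left out in turn. The sign of that median turned with single arrays left out, between -0.09 and 0.04. At other times the replication genes went both ways: 3 of 22 were lower in CR at ZT 4 (median 0.20) and 2 of 22 at ZT 8 (median 0.15), against 21 of 22 at ZT 12 (median -0.18) and at ZT 16 (median -0.33). Mitosis genes had medians of -0.24 at ZT 4 and -0.19 at ZT 8, with 17 of 20 lower at each, 0.10 at ZT 0, 0.07 at ZT 12 and -0.03 at ZT 16. In aged mice at ZT 20 the median was 0.34. There the average over the 20 genes ranged from 7.47 to 7.94 in CR arrays and from 6.64 to 8.14 in control arrays, a control range that encloses the CR range. G1 cyclins and CDK inhibitors had a median of -0.01 in adult mice, with Ccnd1 (cyclin D1) at 0.16 ± 0.09. Some markers of other cells were also lower on some CR arrays, as given further below, and their part in the mitosis values was not tested.

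Genes of protein folding in the endoplasmic reticulum and of ribosome production were mostly higher in CR. Of 19 genes of the unfolded protein response, 14 had a higher mean (median 0.11) and 2 did not overlap between groups (0.628% of all genes were higher without overlap). Syvn1, a ubiquitin ligase of ER-associated degradation, had 8.77, 8.42, 8.48, 8.55 and 8.59 in CR arrays and 8.00, 8.16, 8.36 and 8.37 in control arrays. All CR arrays were above all control arrays (0.34 ± 0.21). Hyou1, an ER chaperone, differed by 0.27 ± 0.30, the transcription factor Xbp1 by 0.34 ± 0.25 and the chaperone Hspa5 (BiP) by 0.17 ± 0.21. Of 15 ribosome biogenesis genes, 14 had a higher mean (median 0.14). Heatr1, which serves ribosomal RNA transcription, was the one with the smallest p at 0.36 ± 0.31, and it had 8.35 on CR replicate 1 and 6.55 to 6.995 on the other CR arrays, against 6.33 to 7.17 in control arrays. Without CR replicate 1 the ribosome biogenesis median was 0.05 and the unfolded protein response median 0.12. No member of either list passed the threshold or had an unadjusted p under 0.05.

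Targets of FOXO factors and autophagy genes were mostly lower in CR, as were genes that glucocorticoids induce. Of 18 FOXO and autophagy genes, 16 had a lower mean (median -0.16, and -0.11 without CR replicate 3), among them Ulk2, a kinase that starts autophagy, at -0.26 ± 0.12 and Txnip, a brake on glucose uptake, at -0.35 ± 0.23. Foxo3 differed by -0.26 and Sesn1, a sensor linked to mTORC1, by -0.38. Of 15 glucocorticoid-induced genes, 13 had a lower mean (median -0.10, and -0.21 without CR replicate 1, -0.16 without control replicate 2 and -0.07, with 10 of 15 lower, without CR replicate 4). Tsc22d3 (GILZ), a direct glucocorticoid target, had 9.52, 9.83, 9.91, 9.07 and 9.09 in CR arrays and 9.94, 10.39, 9.76 and 10.36 in control arrays. CR replicates 2 and 3 lay within the control range, and the difference was -0.63 ± 0.27. Tsc22d3 passed in limma with weights per array (-0.73, adjusted p 0.0323) and with weights updated gene by gene (-0.72, adjusted p 0.0382). It did not pass in limma with weights per group (adjusted p 0.205). Zbtb16 differed by -0.39, Ddit4 by -0.34 and Fkbp5 by -0.25.

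Lipid genes had small differences. Of 18 genes of fatty acid and triglyceride synthesis, 14 had a higher mean in CR (median 0.08, and 0.05 without control replicate 4 or 0.13 without control replicate 2). Of 22 genes of fatty acid oxidation, 17 had a lower mean (median -0.06), but without control replicate 1 they were 11 lower and 11 higher (median -0.01), and without CR replicate 2 they were 21 lower (median -0.09). Dgat2, which makes triglyceride, had 8.12, 8.40, 8.17, 7.98 and 8.17 in CR arrays and 7.84, 7.96, 7.89 and 7.59 in control arrays. Its groups did not overlap (0.35 ± 0.18). Elovl6 and Elovl4, fatty acid elongases, differed by 0.35 and 0.52, and Cpt1a, the gate of mitochondrial fatty acid oxidation, by -0.04. Of 17 cholesterol genes, 14 had a higher mean (median 0.08), with Sqle at 0.65 ± 0.45 and Hmgcs1 at -0.61 ± 0.41. Without CR replicate 1 only 9 of the 17 were higher (median 0.01), and leaving out other single arrays gave medians of 0.02 (control replicate 1) to 0.16 (control replicate 3). Of 21 genes of differentiated keratinocytes, 17 had a higher mean (median 0.09), but without control replicate 4 this was 11 (median 0.03), and without control replicate 3 it was 18 (median 0.16). Sbsn, a secreted protein of upper layers, differed by 0.31 ± 0.16 and Grhl3, a factor of barrier formation, by 0.51 ± 0.27, while Krt1 and Krt10 differed by 0.09 and 0.02 and Tgm3, a transglutaminase, by -0.51. Basal keratinocyte genes had a median of -0.02, with 12 of 15 lower, and 8 of 15 without CR replicate 2.

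**Figure D5:**
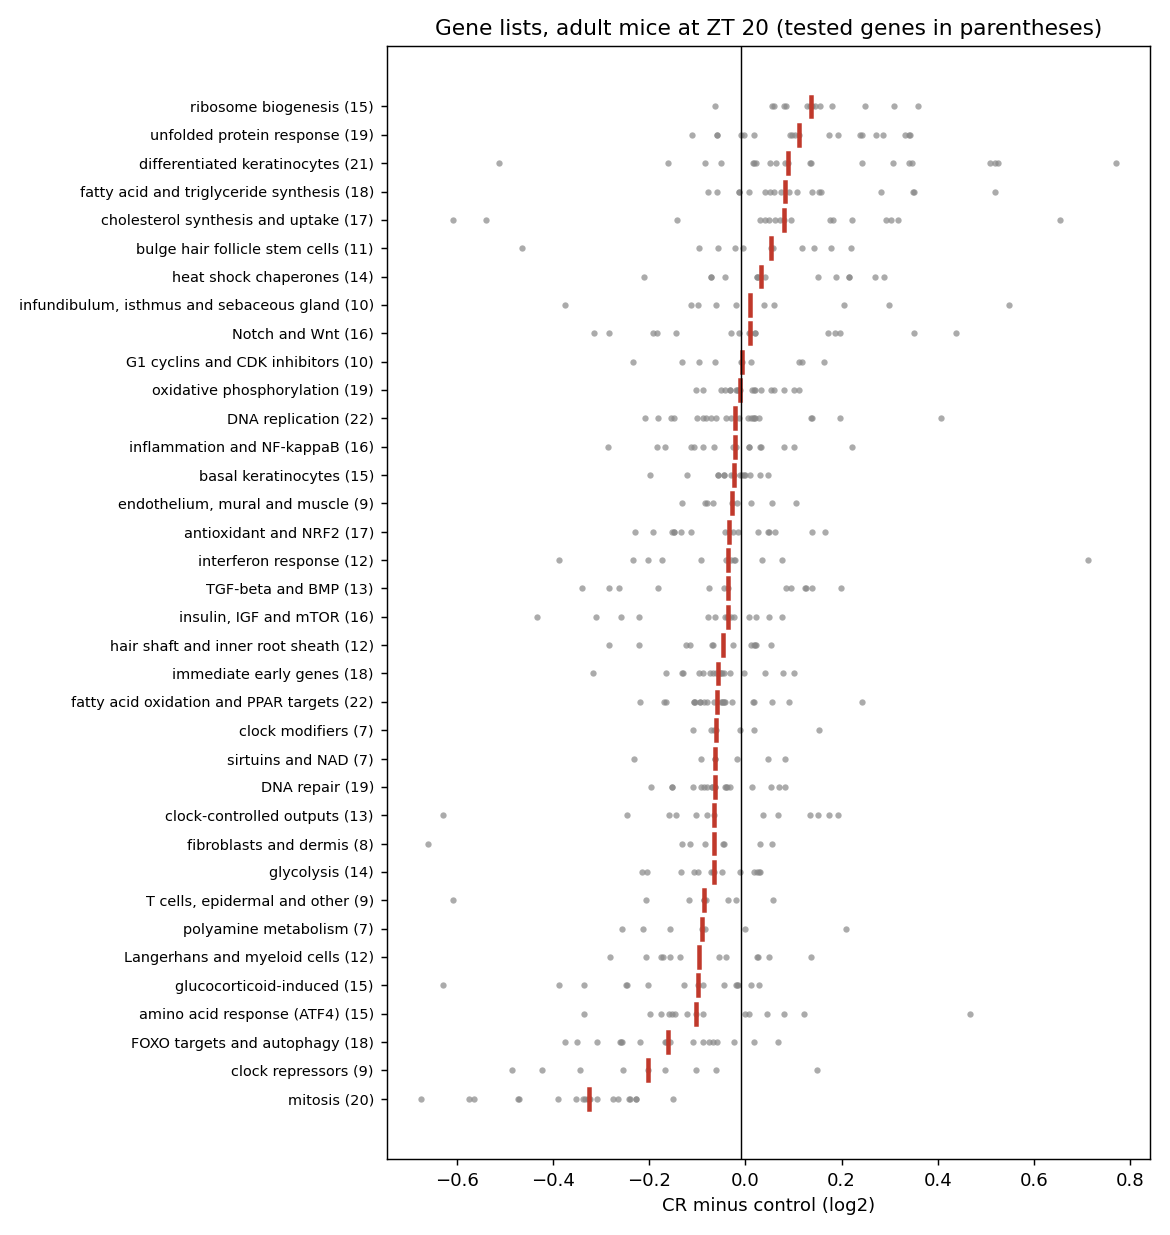
Difference at ZT 20, CR minus control in log2 units (horizontal axis), of every tested gene (grey points) in the 36 gene lists with at least 7 tested genes, with the list median as a red bar and the median of all genes, -0.01, as the vertical line. The mitosis median of -0.33 is the lowest and the ribosome biogenesis median of 0.14 the highest of the lists shown.

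Some markers of T cells and fibroblasts had lower levels on part of the CR arrays. Of 9 tested T cell markers, 8 had a lower mean in CR (median -0.09), and the linear sum of the 10 measured markers was 614 to 801 in CR arrays and 797 to 1015 in control arrays. Thy1, a surface protein of T cells and fibroblasts, made up much of that sum and of its gap, so the sum is no separate measure of T cells. Thy1 had 8.58, 7.80, 8.43, 8.17 and 8.38 in CR arrays and 8.58, 9.10, 8.60 and 9.24 in control arrays. The groups met at 8.58 without overlapping, and the difference was -0.61 ± 0.30, while the T cell receptor chains Cd3e, Cd3d and Cd3g, near background at 4.97 to 5.44 in CR arrays and 5.18 to 5.53 in control arrays on average, differed by -0.21 to -0.08. Of 8 tested fibroblast markers 6 had a lower mean (median -0.07), and 3 of 8 without control replicate 1. The sum of the 12 measured markers was 1252 to 1648 in CR arrays and 1475 to 1861 in control arrays. Col6a1, a matrix collagen, was 7.19, 6.74, 7.62, 7.25 and 7.42 in CR arrays and 7.75, 8.32, 7.42 and 8.12 in control arrays (-0.66 ± 0.34). Col6a1 made up much of the gap in the fibroblast sum, so that sum is no separate measure of fibroblasts. Thy1 and Col6a1 were both lowest on CR replicate 2, the array that was also lowest in mitosis genes. Within the arrays with Xist higher they differed by -1.18 and -1.23, and within those with Y-linked genes higher by -0.13 and -0.18. Fewer cells of a type and less RNA per cell cannot be told apart in such bulk samples, and the part of other cells in the differences above was not tested.

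The difference at ZT 20 was then set against the average diet difference at the other 5 times in adult mice. In limma 0 of 13383 genes (0%) passed in each direction, with 202 at an unadjusted p under 0.05 (1.51%). The averaged difference at the other times, by contrast, passed for 50 genes higher in CR (0.374%) and 22 lower (0.164%). Cd59a, an inhibitor of complement, came closest to a different response. It had 9.78, 10.31, 9.68, 9.51 and 9.76 in CR arrays at ZT 20 and 10.32, 10.29, 9.68 and 10.19 in control arrays. This difference of -0.31 ± 0.17, with overlapping groups, faced a difference of 0.52 ± 0.08 over the other times (limma adjusted p 1.95e-05). The contrast between them was -0.83 ± 0.18 with a limma adjusted p of 0.302. It passed in limma under all 3 ways of weighting (adjusted p 0.00198 with weights per group), without CR replicate 2 (0.0312) and without control replicate 3 (0.0400). Ints9, Tango2 and Tef followed, at -0.48, -0.63 and -0.52, none past the threshold without weights. With array weights the contrast passed in limma for Ints9 (adjusted p 0.00757) and Tef (0.0301), and with weights updated gene by gene for Ints9 (0.00283), Tef (0.0226) and Tango2 (0.0373). None of these 3 passed with weights per group.

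The count of genes past the threshold was also 0 at ZT 8 and was small at most times in adult mice. It was 768 higher (5.74%) and 124 lower (0.927%) at ZT 0, 6 higher (0.0448%) at ZT 4, 4 higher (0.0299%) and 1 lower (0.00747%) at ZT 12 and 1 lower (0.00747%) at ZT 16. These counts share 1 estimate of the spread, and a call at 1 time and none at another does not show that the times differ.

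The diet difference at ZT 20 in adult mice was also set against that in aged mice. No gene passed this contrast in limma (0 of 13383 in each direction, 0%, with 79 at an unadjusted p under 0.05, 0.59%). In the aged mice 2 genes were past the threshold, both lower in CR (0.0149%): Per2 fell by 0.86 ± 0.17 (limma adjusted p 0.0132) and Tef fell by 0.73 ± 0.14 (limma adjusted p 0.0128). In adult mice the same genes differed by -0.10 ± 0.18 and -0.35 ± 0.15. Per2 had 6.68, 6.11, 6.50, 6.04 and 6.43 in adult CR arrays and 6.39, 6.43, 6.49 and 6.50 in adult control arrays, with overlap. The difference between the ages was 0.76 ± 0.24 for Per2 and 0.37 ± 0.20 for Tef, neither past the threshold. A second probe set of Per2 differed by -0.52 in adult mice. Kif14, a kinesin of cytokinesis, and Parpbp, a regulator of recombination, were also among the 4 smallest p, at -0.41 ± 0.13 and -0.87 ± 0.29, as was Nim1k, a kinase, at -1.38 ± 0.45.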

How the data were processed

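RNA of epidermal stem cells was hybridised to Affymetrix mouse PM arrays, 1 array per sample. The authors deposited log2 expression values, summarised with RMA per the submitters' processing notes. Arrays give no read depth, so their number limits the precision. Of 45140 probe sets, 28898 name 1 gene symbol, 551 several and 15691 none. The brightest probe set of each of 17097 genes was kept, and 13383 genes with a mean level of at least 4.73, the 30th percentile, were tested. Differences were tested with limma 3.58.1 in R 4.3.3, fitting 24 group means over 102 arrays, with Benjamini-Hochberg adjustment at 0.05. Single values were also set against all 126 arrangements of the 9 arrays in an exact permutation test. The fit was tested on simulated data.

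The comparison, the gene lists (43 lists, 658 genes, 524 tested) and the rules were chosen with earlier results of these data known. The rule for named genes was the 15 largest changes past the threshold in each direction, filled up to 10 by smallest p where fewer passed. All tested clock genes were added, with the member of smallest p of each other list and the 4 smallest p of each contrast between differences. The genes called with weights and other list members given as examples were chosen after their values were seen. No set test was run, and lists are described by counts and medians. Alternatives were other filters, probe set rules, centring, covariates, weights, the 9 arrays alone and each array left out. No promoter sequence is shown, since no clock gene passed the threshold.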

Additional observations from a re-analysis of the deposited data

Results flagged for a closer look

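Single arrays stood apart from the rest of their group in 11 of the 158 groups tested over 79 named genes, judged by the gap to the nearest array relative to the group's range. Chance gives about 1 in 20 groups. Among clock genes, Tef had 8.89 on control replicate 1 and 8.34 to 8.43 on the other control arrays, and Nfil3 had 8.27 on control replicate 2 and 8.95 to 8.999 on the others. Col18a1 had 7.55 on control replicate 1 and 7.96 to 7.99 on the other control arrays. Krt79, a keratin of the upper hair follicle, had 7.27 on control replicate 1 and 8.15 to 8.27 on the others. Chek2, a checkpoint kinase, had 6.21 on control replicate 3 and 6.54 to 6.60 on the others.

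Heatr1 had 8.35 on CR replicate 1 and 6.55 to 6.995 on the other CR arrays. On CR replicate 2, Abcb10 had 7.90 against 7.56 to 7.64 on the other CR arrays, Tango2 had 7.08 against 6.56 to 6.71, and Postn, a matrix protein, had 7.48 against 8.17 to 8.36. On CR replicate 3, Nim1k had 7.05 against 5.25 to 5.71 on the other CR arrays, and Cox6a1, a subunit of cytochrome c oxidase, had 11.77 against 11.72 to 11.73.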

How the results depend on the processing

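At ZT 20 limma called 0 genes in 23 of 26 alternatives, with 70 to 858 genes at an unadjusted p under 0.05, and 42 genes with array weights, 26 with weights updated gene by gene and 9 with weights per group. The contrast of ZT 20 with the other times called 0 genes, against 27 with array weights, 27 gene by gene and 1 per group, and 0 to 1 when each array was left out (Cd59a, without CR replicate 2 or control replicate 3). The averaged difference at the other times called 72 genes, against 43 with arrays centred on their medians, 124 with array background as a covariate, 1019 with array weights, 1457 gene by gene and 15 per group. Of 2744 single-gene comparisons, 2676 kept direction and side of the threshold, 49 newly passed and 19 reversed.

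The reversals were small except for Cry1, which went from 0.15 to -0.15 without CR replicate 1. Npas2 was 0.0066 under both fits with a replicate block, 0.041 as the mean of its probe sets, 0.012 with array weights, 0.0098 gene by gene and 0.019 in the 9 arrays without CR replicate 1. Rora was -0.019 as the mean of its probe sets, -0.034 with array weights and gene by gene, and -0.034 in the 9 arrays without CR replicate 1. Arntl was -0.0062 with array weights, and Cry1 was -0.15 in the 9 arrays without CR replicate 1. Leaving out each array gave -0.018 to 0.27 for Arntl, -0.15 to 0.31 for Cry1, -0.34 to 0.0053 for Nfil3, -0.050 to 0.019 for Npas2 and -0.050 to 0.064 for Rora. The cause was not tested. Deviations from the group mean correlated at -0.20 to 0.46 between CR and control arrays of the same number, and at -0.44 to 0.53 between those of different number. So few values cannot decide whether the numbers pair the arrays. The replicate block called 0 genes. Weights per group, weights gene by gene, and the 9 arrays without CR replicate 1 were added after seeing the data.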

Other observations

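Other gene groups at ZT 20 had small median differences, and no member passed the adjusted threshold in limma. Of 18 immediate early genes, which respond within minutes to stimuli, 15 had a lower mean in CR (median -0.06). Of 14 glycolysis genes 10 had a lower mean (median -0.07), a count that ran from 7 (without CR replicate 2 or control replicate 3) to 14 (without control replicate 2). Oxidative phosphorylation was split, with 9 of 19 higher and 10 lower. Of 16 genes of insulin, IGF and mTOR signalling 12 had a lower mean (median -0.04), with Irs1, an adaptor of the insulin receptor, at -0.43. Of 19 DNA repair genes 15 had a lower mean (median -0.06).

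In the Notch and Wnt list, 9 of 16 genes had a higher mean (median 0.009). Notch3, a Notch receptor, at 0.44 and Wnt3, a Wnt ligand, at 0.35 did not overlap between groups, nor did Sfrp1, a secreted Wnt inhibitor, at -0.31. Over all genes, 0.628% were higher and 1.21% lower without overlap. Of 12 interferon genes 9 had a lower mean, and 6 without CR replicate 2 or control replicate 1. Usp18, an interferon-induced protease, was 0.71 higher without overlap. Bulge stem cell genes were split, with 6 of 11 higher. Of 12 markers of Langerhans and myeloid cells 8 had a lower mean (median -0.10), and 6 without CR replicate 1 (median -0.02).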
